A study of Homo sapiens with 11 samples.

Results

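The comparison described here sets HCT116 cells kept for 48 h with GTEA1, a triterpenoid extract of Ganoderma known only by this code name, against HCT116 cells kept with its solvent DMSO. It rests on 7 of the 11 libraries of the series, 3 with DMSO and 4 with GTEA1, and on 17963 of the 61464 gene IDs in the deposited count table, those with enough counts to be tested. HCT116 is an established human colon carcinoma line of epithelial cells, and the labels give a ras mutation as the genotype of every group. The other 4 libraries came from the same line after 48 h with a related extract, GTEA7, and are used only to say where GTEA1 differed from it. No dose is given in the labels, so neither the strength of the exposure nor how the extracts were matched is known. The series asks how such extracts act on the stem cell properties and migration of colon cancer cells.

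Cells that meet amino acid shortage, misfolded protein or heme loss phosphorylate the initiation factor eIF2alpha, which slows bulk translation while the transcription factor ATF4 is made and switches on genes for amino acid uptake, amino acid synthesis and tRNA charging. This program is called the integrated stress response. Electrophiles and oxidants act on the sensor KEAP1 instead, which frees the transcription factor NRF2 to induce glutathione, thioredoxin and iron storage genes. Proliferation in colon carcinoma depends on E2F and MYB family factors that drive replication and mitosis genes and, in cells with active beta-catenin, on Wnt target genes.

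The 7 DMSO and GTEA1 libraries had between 13742326 and 17431515 counts, and the 4 GTEA7 libraries between 14955685 and 19304211. On a principal component analysis of log2 CPM (counts scaled to a common library size after correction by TMM factors) over the DMSO and GTEA1 libraries, the first component held 82.7% of the variance and separated the groups, and on the second, with 4.3%, GTEA1 replicate 1 stood apart from the others. The groups are sums over all cells of a dish, so fewer cells with a transcript and less transcript per cell cannot be told apart. The epithelial markers EPCAM (from 234 ± 5.6 to 359 ± 12 CPM), CDH1 (from 146 ± 1.8 to 164 ± 8.0 CPM) and KRT8 (from 1160.5 ± 42 to 972 ± 24 CPM) were present in both groups. The colon differentiation markers VIL1, CEACAM5, LGALS4, MUC2 and TFF3 had at most 28 counts over all 11 libraries and were not tested. All 8 leukocyte and erythroid markers were too low to be tested, at 0 to 69 counts in total over the 11 libraries. Among fibroblast markers COL1A1 fell from 51.8 ± 1.3 to 40.8 ± 2.0 CPM, while DCN, LUM and PDGFRA had at most 4 counts in all.

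Values after ± are SDs for CPM (n = 3 for DMSO, n = 4 for GTEA1) and standard errors for log2 fold changes, and p-values are those of edgeR's quasi-likelihood test adjusted over all tested genes. The test was passed by 71.8% of genes, 35.6% higher and 36.2% lower in GTEA1, so a change in a single gene is the rule here, and each count below has to be read against these shares. The GTEA1 and DMSO libraries did not overlap in CPM in 68.7% of genes. Rises of at least 2-fold were seen in 8.56% of genes and falls of at least 2-fold in 12.4%. At 4-fold the shares were 2.17% and 2.82%, and at 8-fold 0.629% and 0.651%. Without GTEA1 replicate 1, 12699 genes passed in place of 12895, with 6243 higher and 6456 lower. Over all tested genes the log2 fold changes had a median of -0.01. With library size as the only scaling it was -0.17, and 4828 genes were then higher and 8179 lower in place of 6390 and 6505, so rises or falls smaller than that shift depend on the scaling. Labels do not say that replicates were separate cultures, and the p-values measure the spread between these samples only.

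**Figure D1:**
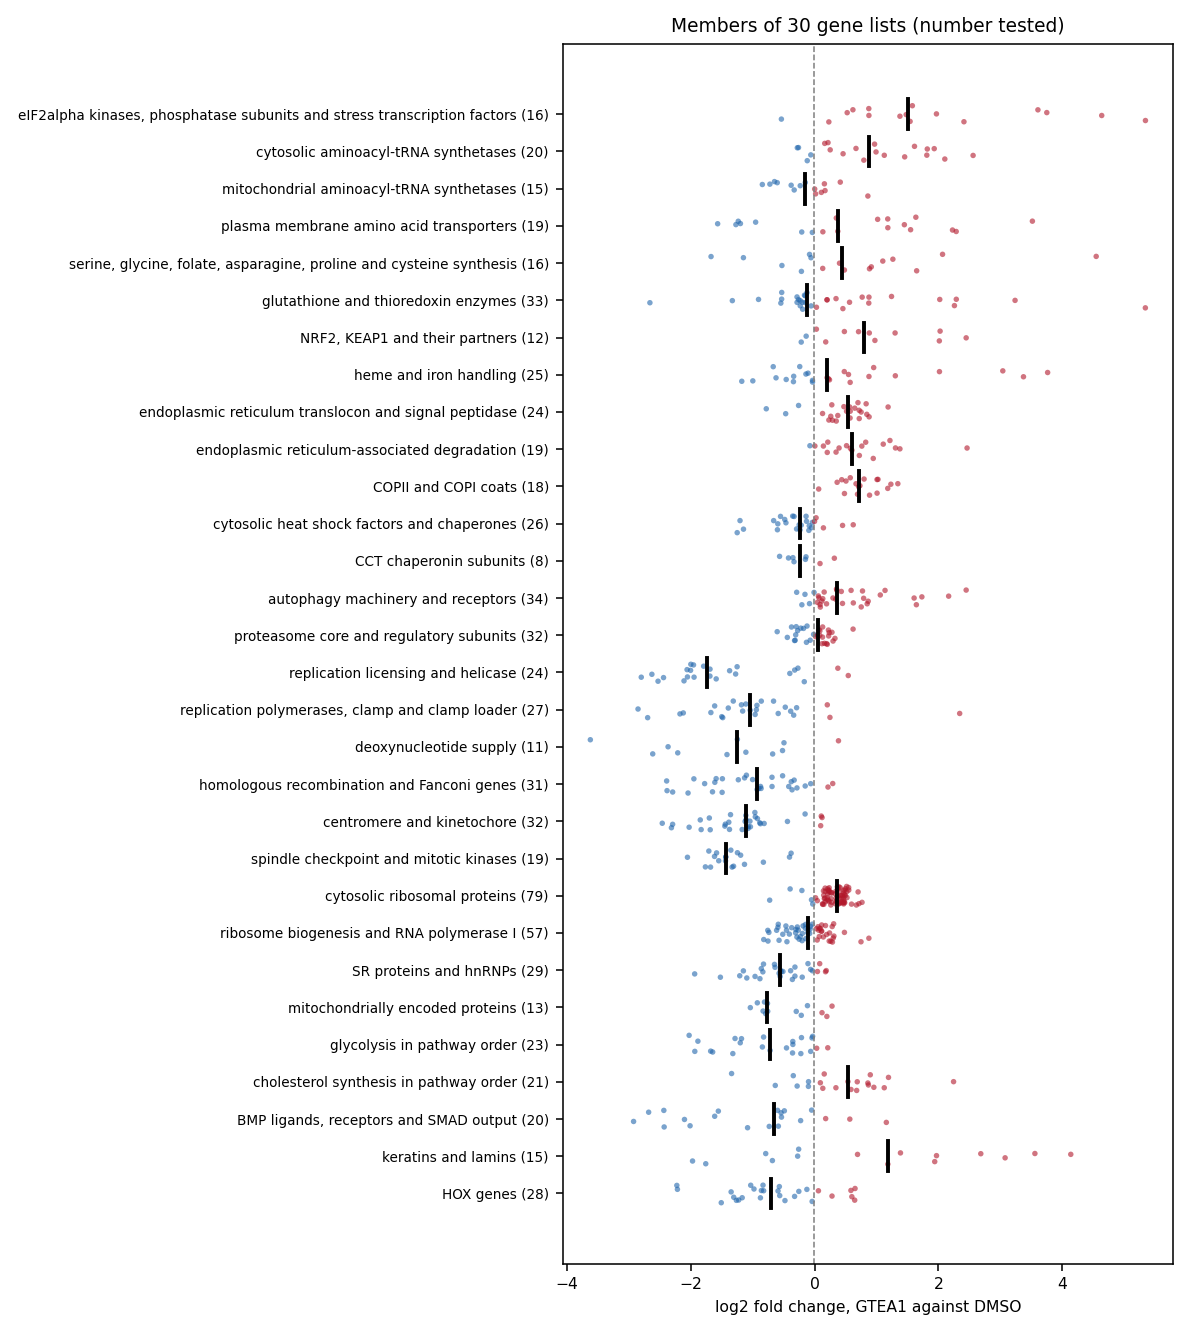
Log2 fold change of each tested member (points) of 30 gene lists in GTEA1 against DMSO, with the list's median as a black bar and the median of all tested genes, -0.01, as a dashed line. Stress factors, cytosolic tRNA synthetases, coat proteins and ribosomal proteins lie mostly to the right, replication, kinetochore, mitotic kinase, glycolysis and HOX genes mostly to the left.

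The kinases, phosphatase subunits and transcription factors of the integrated stress response shifted upward as a list. Of 16 members, all tested, 15 rose and 1 fell (median log2 fold change 1.51), and 10 rose at least 2-fold. DDIT3 (ENSG00000175197), which encodes the factor CHOP, was at 3.17, 3.67 and 3.11 CPM in the DMSO libraries and 123, 127, 153 and 138 CPM in the GTEA1 libraries. Every GTEA1 library was thus more than 10 times above every DMSO library. Among the kinases that phosphorylate eIF2alpha, the endoplasmic reticulum sensor EIF2AK3, known as PERK, rose from 21.2 ± 1.7 to 39.2 ± 1.4 CPM (0.88 ± 0.062), the amino acid sensor EIF2AK4, known as GCN2, rose by 0.53 ± 0.038, and the heme sensor EIF2AK1 rose by 0.23 ± 0.033 (0.07 and no longer past the threshold with library size only). The member that fell was EIF2AK2, the kinase that senses double-stranded RNA (-0.54 ± 0.038). ATF4 itself, whose protein output is known to be set mainly by translation, went from 263 ± 8.8 to 735 ± 12 CPM (1.48 ± 0.036). Its partners CEBPG (1.97 ± 0.044) and ATF5 (1.54 ± 0.11) rose. PPP1R15A, the inducible phosphatase subunit that reverses eIF2alpha phosphorylation, rose by 2.41 ± 0.058 and its constitutive relative PPP1R15B by 0.88 ± 0.039. The stress cofactor NUPR1 was listed at 0.0770 ± 0.081 CPM in DMSO and 2.17 ± 0.21 CPM in GTEA1.

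The enzymes that charge tRNAs split by compartment. Of 20 cytosolic aminoacyl-tRNA synthetases 16 rose and 3 fell (median 0.88), whereas of 15 tested mitochondrial ones 3 rose and 7 fell (median -0.15). The alanyl-tRNA synthetase AARS1 (ENSG00000090861) was at 159, 161 and 165 CPM in the DMSO libraries and 884, 958, 1007 and 962 CPM in the GTEA1 libraries. SARS1, which charges serine tRNA, followed (2.10 ± 0.036), then CARS1 for cysteine (1.93 ± 0.056), YARS1 for tyrosine (1.82 ± 0.037) and GARS1 for glycine (1.81 ± 0.037). QARS1 for glutamine fell (-0.26 ± 0.037), as did the alpha subunit of the phenylalanine enzyme, FARSA (-0.12 ± 0.051). FARSA missed the threshold when DMSO replicate 2 or 3 was left out (-0.09, adjusted p = 0.18 each), and likewise for GTEA1 replicate 2 or 4 (adjusted p = 0.062 and 0.12). Among the mitochondrial enzymes RARS2 rose (0.86 ± 0.045). XPOT, which exports mature tRNAs from the nucleus, rose from 174 ± 3.5 to 443 ± 12 CPM (1.35 ± 0.036). SARS2 and VARS2 were listed at 0 counts in all libraries.

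Amino acid transporters rose more often than they fell. Of 19 tested transporters 11 rose and 6 fell, 9 of them upward and 4 downward by at least 2-fold. The heavy chain SLC3A2, shared by several exchangers, was at 104, 108 and 106 CPM in the DMSO libraries and 496, 488, 498 and 505 CPM in the GTEA1 libraries. Its light chain partners for cystine, SLC7A11 (3.52 ± 0.045), and for large neutral amino acids, SLC7A5 (2.29 ± 0.038), rose with it (reads of SLC7A11 and of its antisense partner cannot be separated, as the strand setting is not known), whereas another light chain of this family, SLC7A8, fell (-1.23 ± 0.091). The neutral amino acid carriers SLC1A4 (1.55 ± 0.079) and SLC1A5 (1.18 ± 0.038) and the glycine carrier SLC6A9 (1.45 ± 0.11) rose, and the cationic carrier SLC7A2 fell (-1.56 ± 0.062) while its relative SLC7A1 rose (1.18 ± 0.037).

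In amino acid and one-carbon synthesis 9 of 16 tested genes rose and 5 fell. ASNS (ENSG00000070669), asparagine synthetase, was at 2.94, 2.64 and 3.24 CPM in the DMSO libraries and 61.4, 65.2, 71.0 and 75.4 CPM in the GTEA1 libraries, a 23.4-fold rise. The serine pathway rose at its first steps, PHGDH (1.10 ± 0.043) and PSAT1 (2.07 ± 0.040), but the last enzyme, PSPH, did not pass (-0.06, adjusted p = 0.4). Among mitochondrial folate enzymes MTHFD2 (1.65 ± 0.037) and MTHFD1L (0.89 ± 0.040) rose, SHMT2 fell (-0.21 ± 0.039) and ALDH1L2 did not pass (0.13, adjusted p = 0.31). The cytosolic ones MTHFD1 (-0.53 ± 0.041) and SHMT1 (-1.15 ± 0.069) fell. CTH, which makes cysteine by transsulfuration, rose by 1.26 ± 0.071. For proline, PYCR1 rose (0.92 ± 0.043) and PYCR3 fell (-1.67 ± 0.22).

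Promoters of these genes were searched for the letters of the ATF4 composite element, TGATGNAA on either strand, in the 250 bases before the RefSeq start (GRCh38.p14). The letters were in 3.26% of all 27305 promoters in the RefSeq table, in 1.47% of the 11562 that belong to tested genes and in 10.5% of the 57 promoters matched to the stress factor, synthetase, transporter and synthesis lists. Within the set, the 6 genes with the letters had a median log2 fold change of 1.08 and the 51 without them one of 1.02. AARS1 and SLC1A5 are printed because they hold the letters and rose, with the match in capitals.
AARS1 (chr16:70289507-70289756, minus strand): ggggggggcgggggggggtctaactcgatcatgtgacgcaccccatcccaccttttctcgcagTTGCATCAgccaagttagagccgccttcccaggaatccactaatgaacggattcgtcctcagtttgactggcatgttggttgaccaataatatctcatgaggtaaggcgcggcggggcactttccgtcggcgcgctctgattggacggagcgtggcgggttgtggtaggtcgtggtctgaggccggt
SLC1A5 (chr19:46784815-46785064, minus strand): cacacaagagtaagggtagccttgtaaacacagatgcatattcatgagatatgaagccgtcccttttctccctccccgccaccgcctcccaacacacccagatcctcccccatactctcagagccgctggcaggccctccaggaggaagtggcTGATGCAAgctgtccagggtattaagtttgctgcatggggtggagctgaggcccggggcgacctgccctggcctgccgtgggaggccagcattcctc

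Thioredoxin reductase and the enzymes of glutathione synthesis rose, while the list of redox enzymes as a whole was balanced. Of 33 tested glutathione and thioredoxin enzymes 14 rose and 17 fell (median -0.12). TXNRD1 (ENSG00000198431), cytosolic thioredoxin reductase, was at 349, 334 and 339 CPM in the DMSO libraries and 1598, 1643, 1668 and 1747 CPM in the GTEA1 libraries. The subunits of the rate-limiting enzyme of glutathione synthesis, GCLC (2.26 ± 0.043) and GCLM (2.02 ± 0.050), rose, as did the second enzyme, GSS (1.24 ± 0.044). CHAC1, which breaks glutathione down, rose from 1.17 ± 0.36 to 49.0 ± 2.9 CPM. PRDX2, a peroxiredoxin (-1.33 ± 0.051), catalase, CAT (-0.53 ± 0.042), and SOD1 (-0.53 ± 0.041) fell. Of 13 NADPH-producing enzymes 9 rose, with malic enzyme ME1 (1.32 ± 0.042) and IDH1 (0.90 ± 0.036) the largest, and 3 fell.

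In the NRF2 circuit itself 9 of 12 genes rose and 1 fell. NFE2L2, which encodes NRF2, went from 107 ± 3.3 to 198 ± 7.3 CPM (0.88 ± 0.038), and KEAP1, its inhibitor, did not pass (0.03, adjusted p = 0.63, but -0.03 without DMSO replicate 1 and -0.13, adjusted p = 0.03, with library size only). The small MAF partners MAFF (2.03 ± 0.074) and MAFG (1.30 ± 0.045), the repressor BACH1 (0.48 ± 0.050) and the KEAP1-binding autophagy receptor SQSTM1 (2.45 ± 0.059) rose. The letters of the antioxidant response element, TGACNNNGC, were in 15.3% of 85 promoters of the redox, iron and conjugation lists, in 11.0% of all promoters and in 12.3% of those of tested genes, and the set's genes with and without them had medians of 0.20 and 0.27. The promoter of TXNRD1, which rose, holds them once.
TXNRD1 (chr12:104215529-104215778, plus strand): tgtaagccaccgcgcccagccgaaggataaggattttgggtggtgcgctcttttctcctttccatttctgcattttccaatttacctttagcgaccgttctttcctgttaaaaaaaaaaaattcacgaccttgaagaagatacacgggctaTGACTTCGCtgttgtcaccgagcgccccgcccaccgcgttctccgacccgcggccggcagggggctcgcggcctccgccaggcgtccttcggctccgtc

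Genes of heme and iron handling changed in both directions. Of 25 tested members 12 rose and 9 fell, and with library size only there were 10 higher and 12 lower. HMOX1 (ENSG00000100292), which opens the heme ring, was at 15.1, 14.4 and 17.0 CPM in the DMSO libraries and 204, 210.5, 201 and 222 CPM in the GTEA1 libraries. BLVRB (1.30 ± 0.054), a reductase that acts further along heme breakdown, and ALAS1 (2.02 ± 0.041), the first enzyme of heme synthesis, rose, whereas CPOX (-1.17 ± 0.033), UROS (-0.67 ± 0.049) and ALAD (-0.62 ± 0.065), later enzymes of heme synthesis, fell. Of the other breakdown enzymes HMOX2 (-0.10, adjusted p = 0.14) and BLVRA (-0.03, adjusted p = 0.71) did not pass, though both did with library size only (-0.26 and -0.19). The ferritin light chain FTL went from 536 ± 15 to 4406 ± 85 CPM, a count that reads from its pseudogenes could share. The transferrin receptor TFRC rose by 0.58 ± 0.034, and the iron exporter SLC40A1 fell from 2.05 ± 0.38 to 1.04 ± 0.32 CPM. Among conjugating and exporting proteins 13 of 20 tested rose and 5 fell: the exporter ABCC3 rose (2.20 ± 0.041) and its relative ABCC2 fell from 789 ± 17 to 269 ± 6.1 CPM.

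**Figure D2:**
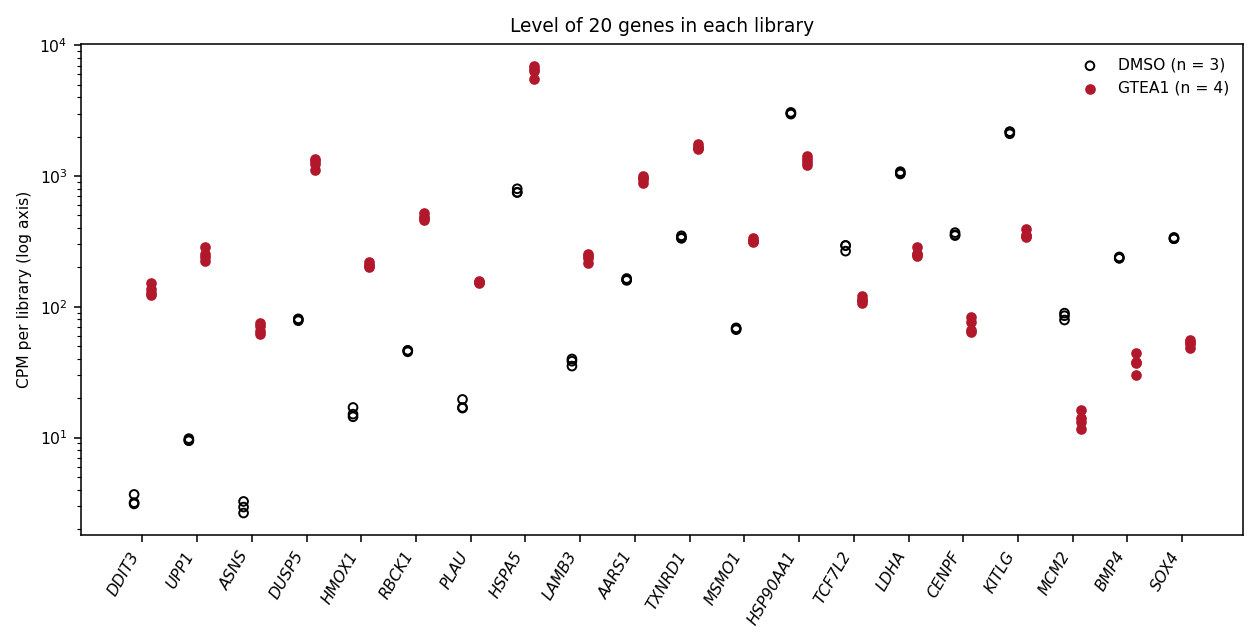
CPM in each DMSO (open circles, n = 3) and GTEA1 library (filled circles, n = 4) for 20 genes on a log axis, ordered by log2 fold change. In each of the 20 genes the libraries of the groups do not overlap, as in 68.7% of all tested genes.

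Genes of the secretory pathway rose at each step from entry into the endoplasmic reticulum to the coats of transport vesicles. HSPA5 (ENSG00000044574), the chaperone BiP, was at 799.9, 752 and 748 CPM in the DMSO libraries and 5553, 6319.9, 6631 and 6928 CPM in the GTEA1 libraries, 8.29-fold higher. Of 24 translocon and signal peptidase genes 21 rose, with a median of 0.54, and of 11 oligosaccharyltransferase subunits, which attach sugar chains, 10 rose and 0 fell. Of 19 tested genes for degradation of misfolded proteins 17 rose and 0 fell (median 0.60), among them HERPUD1 (2.46 ± 0.046), SEL1L (1.38 ± 0.044) and the mannosidase-like EDEM1 (1.31 ± 0.051). Coat proteins of anterograde COPII and retrograde COPI vesicles followed, 17 of 18 higher and 0 lower, with SEC24D (1.35 ± 0.046) and SEC13 (1.23 ± 0.040) first. The exceptions in the translocon list were SRP9 (-0.78 ± 0.038) and SRP14 (-0.47 ± 0.042), which form the Alu domain of the signal recognition particle, and SEC11A (-0.26 ± 0.038).

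Most tested chaperones of the cytosol went the other way. Of 26 tested heat shock factors and chaperones 3 rose and 19 fell, and of 8 subunits of the chaperonin that folds actin and tubulin 2 rose and 6 fell. The inducible heat shock genes HSPA1A and HSPA1B had 3 and 1 counts over all libraries and were not tested, so their change is not known. HSP90AA1 (ENSG00000080824) was at 3069.6, 2979 and 3026 CPM in the DMSO libraries and 1414, 1282, 1355 and 1206 CPM in the GTEA1 libraries. The constitutive chaperone HSPA8 (-0.66 ± 0.041), the cochaperones DNAJA1 (-1.25 ± 0.041) and FKBP5 (-1.15 ± 0.042) and the small heat shock protein HSPB1 (-0.60 ± 0.046) fell, and HSF1, the master factor of this response, rose by 0.45 ± 0.052. In mitochondria, HSPA9 (0.95 ± 0.035) and the protease LONP1 (0.96 ± 0.040) rose, and the chaperonin pair HSPD1 (-0.38 ± 0.035) and HSPE1 (-0.76 ± 0.096) fell.

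Of 34 tested autophagy genes 23 rose and 2 fell (median 0.36). ATG12, a ubiquitin-like protein needed to form the autophagosome, was at 119, 111 and 114 CPM in the DMSO libraries and 480.5, 484, 538 and 554 CPM in the GTEA1 libraries. The cargo receptors NBR1 (1.14 ± 0.038) and TAX1BP1 (1.06 ± 0.039), the lipid-binding WIPI1 (1.61 ± 0.053) and the lysosomal factor TFE3 (1.64 ± 0.053) rose, but the initiating kinase ULK1 (-0.15 ± 0.058) and the lipid kinase PIK3C3 (-0.29 ± 0.043) fell, though ULK1 did not pass without DMSO replicate 2 (-0.14, adjusted p = 0.069). The lysosomal proton pump was mixed, with 6 of 16 tested subunits higher and 9 lower, ATP6V0D1 at -1.15 ± 0.068. The 32 proteasome subunits were also mixed, 12 higher and 11 lower (median 0.05), and 4 higher and 16 lower with library size only.

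Replication genes fell at nearly every step. Of 24 licensing and helicase genes 2 rose and 22 fell (median -1.74). MCM2 (ENSG00000073111), a subunit of the replicative helicase, was at 79.2, 89.4 and 85.4 CPM in the DMSO libraries and 16.1, 13.2, 14.2 and 11.6 CPM in the GTEA1 libraries. All 6 helicase subunits fell, from MCM6 (-1.27 ± 0.044) to MCM2 (-2.63 ± 0.088), and so did all 4 GINS subunits that activate the helicase, with GINS2 at -2.80 ± 0.086 the lowest. The licensing factor CDT1 (-1.25 ± 0.070) and its inhibitor GMNN (-1.59 ± 0.068) fell together. CDC6, which loads the helicase, fell by less (-0.32 ± 0.045), and the origin recognition subunits ORC2 (0.54 ± 0.049) and ORC3 (0.38 ± 0.056) rose while ORC1 (-2.00 ± 0.085) and ORC6 (-1.69 ± 0.074) fell.

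Of 27 polymerase, clamp and chromatin assembly genes 2 rose and 24 fell (median -1.04). FEN1 (-2.69 ± 0.10), the flap nuclease, ASF1B (-2.85 ± 0.12), a histone chaperone, CHAF1A (-2.17 ± 0.064), a chromatin assembly subunit, and PRIM1 (-2.12 ± 0.095), the primase, fell most. The small delta subunit POLD4 rose from 1.37 ± 0.17 to 7.02 ± 0.18 CPM (2.34 ± 0.16), against the direction of POLD1 (-0.96 ± 0.064) and POLD3 (-0.93 ± 0.082). The supply of deoxynucleotides fell in 10 of 11 genes. Thymidine kinase TK1 (-2.61 ± 0.12), the reductase subunit RRM2 (-2.36 ± 0.11) and thymidylate synthase TYMS (-2.21 ± 0.091) fell, while RRM2B, an alternative to RRM2, rose by 0.39 ± 0.038.

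The letters TTTNNCGC, shared by many E2F elements, were in 27.8% of 54 matched replication promoters, in 5.87% of all promoters and in 8.44% of those of tested genes. The median log2 fold change was -1.27 in the 15 genes with the letters and -1.37 in the 39 without. GINS2 and TYMS are printed because they are among the genes with the letters and fell by more than 4-fold.
GINS2 (chr16:85688955-85689204, minus strand): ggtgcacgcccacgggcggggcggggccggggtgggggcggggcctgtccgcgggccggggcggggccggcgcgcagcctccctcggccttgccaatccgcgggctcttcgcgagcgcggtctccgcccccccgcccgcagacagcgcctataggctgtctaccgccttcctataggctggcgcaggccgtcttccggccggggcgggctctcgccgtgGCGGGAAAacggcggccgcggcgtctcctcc
TYMS (chr18:657403-657652, plus strand): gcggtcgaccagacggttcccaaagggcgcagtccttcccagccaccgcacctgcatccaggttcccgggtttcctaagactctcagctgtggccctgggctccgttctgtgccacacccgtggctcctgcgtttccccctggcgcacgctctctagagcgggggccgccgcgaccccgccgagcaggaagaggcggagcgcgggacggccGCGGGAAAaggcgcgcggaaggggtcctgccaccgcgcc

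Of 20 tested E2F, RB and MYB-like regulators 14 fell and 3 rose. E2F1 (-2.18 ± 0.10) and E2F2 (-2.12 ± 0.22), which activate S phase genes, MYBL2 (-2.41 ± 0.083) and FOXM1 (-2.07 ± 0.069), which activate mitotic genes, fell, whereas E2F5, which acts mainly as a repressor, rose (0.48 ± 0.073). MYB, a factor of progenitor proliferation, fell from 9.29 ± 1.1 to 0.453 ± 0.31 CPM. Of 14 tested cyclins and CDKs 13 fell and 1 rose. The cyclin E genes divided, CCNE1 at 0.43 ± 0.062 and CCNE2 at -2.90 ± 0.13. Of 13 inhibitors and phosphatases that gate the CDKs 6 rose and 6 fell. CDKN1A (2.05 ± 0.040) and CDKN1C (2.10 ± 0.16), which encode p21 and p57, CDKN2B (0.95 ± 0.078) and CDKN1B (0.48 ± 0.053) rose, and CDKN2C, which encodes p18, fell from 6.25 ± 1.1 to 1.05 ± 0.13 CPM. PLK3, a kinase of stress checkpoints unlike its mitotic relative PLK1 (-1.33 ± 0.059), was at 17.6, 16.3 and 17.0 CPM in the DMSO libraries and 99.4, 109, 115 and 115 CPM in the GTEA1 libraries.

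Mitotic genes fell without an opposite call in the lists for the kinetochore and for the checkpoint. Of 32 centromere and kinetochore genes 29 fell and 0 rose (median -1.11), and of 19 tested checkpoint genes and mitotic kinases 19 fell and 0 rose (median -1.43). CENPF (ENSG00000117724), a large kinetochore protein, was at 355, 369 and 351 CPM in the DMSO libraries and 76.3, 66.0, 83.0 and 63.8 CPM in the GTEA1 libraries. SKA3 (-2.46 ± 0.078), ZWINT (-2.29 ± 0.091) and SPC25 (-2.02 ± 0.11) also fell by more than 4-fold, and the survivin gene BIRC5 by -2.05 ± 0.059. The histone H3 variant of the centromere itself, CENPA, fell by 0.96 ± 0.11. Condensin I subunits NCAPH (-1.96 ± 0.062) and NCAPG (-1.84 ± 0.053) fell more than the cohesin subunit RAD21 (-0.44 ± 0.033), and the cohesin loader NIPBL rose slightly (0.16 ± 0.040), within the shift between scalings.

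The NF-Y box CCAAT was in 62.5% of 56 matched mitotic promoters, in 32.9% of all promoters and in 34.4% of those of tested genes. TTTGAA, the cell cycle homology region, was in 28.6%, 13.7% and 8.59% of them. Neither set of letters divided the mitotic genes by size of change: medians were -1.19 with and -1.25 without CCAAT, and -1.25 with and -1.21 without TTTGAA. ZWINT and SPC25 hold both and are printed with all matches in capitals.
ZWINT (chr10:56361260-56361509, minus strand): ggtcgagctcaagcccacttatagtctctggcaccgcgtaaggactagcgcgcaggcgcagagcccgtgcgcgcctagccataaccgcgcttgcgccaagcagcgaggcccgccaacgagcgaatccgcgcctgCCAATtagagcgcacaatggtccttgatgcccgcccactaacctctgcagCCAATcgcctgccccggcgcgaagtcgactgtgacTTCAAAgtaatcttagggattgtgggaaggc
SPC25 (chr2:168890431-168890680, minus strand): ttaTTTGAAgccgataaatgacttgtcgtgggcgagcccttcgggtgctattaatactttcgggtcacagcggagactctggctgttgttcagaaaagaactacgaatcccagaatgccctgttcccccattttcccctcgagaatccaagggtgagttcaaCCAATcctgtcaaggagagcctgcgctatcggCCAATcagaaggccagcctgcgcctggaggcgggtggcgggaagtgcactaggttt

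DNA repair divided by pathway. Of 31 homologous recombination and Fanconi genes 27 fell and 2 rose (median -0.93). XRCC2 was at 41.1, 39.1 and 43.6 CPM in the DMSO libraries and 8.44, 7.57, 8.05 and 7.45 CPM in the GTEA1 libraries. BRCA2 (-2.04 ± 0.063) and BRIP1 (-2.38 ± 0.079) fell, and XRCC3 (0.29 ± 0.078) and NBN (0.22 ± 0.040) rose, though neither passed with library size only. The 29 genes of mismatch, excision and end-joining repair were mixed, 11 higher and 14 lower (median -0.07): the uracil glycosylase UNG fell (-1.22 ± 0.047), while the nuclease ERCC1 (1.34 ± 0.045) and the ligase LIG3 (1.05 ± 0.050) rose.

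Ribosomal protein genes rose together by a small amount. Of 79 tested genes 67 rose and 2 fell (median 0.37), 0 of them by 2-fold. Scaled by library size alone there were 52 higher and 7 lower, with a median of 0.21. RPS12 rose from 405 ± 25 to 689.9 ± 21 CPM (0.77 ± 0.038), and RPS23 (-0.72 ± 0.050) and RPL22 (-0.39 ± 0.042) fell. The many pseudogenes of this family can share its reads. EEF1A1 (ENSG00000156508), the elongation factor that brings tRNA to the ribosome and whose mRNA belongs to the same class with a terminal oligopyrimidine start, was at 11370.3, 11571 and 11897 CPM in the DMSO libraries and 22931, 23458, 24203 and 23509 CPM in the GTEA1 libraries. Host genes of small nucleolar RNAs, several of which carry such a start, rose in 14 of 22 tested cases and fell in 3: GAS5 went from 234 ± 4.1 to 626 ± 24 CPM (1.42 ± 0.036) and SNHG8 from 24.6 ± 1.4 to 77.9 ± 1.4 CPM.

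The genes that build ribosomes did not follow. Of 57 biogenesis genes 14 rose and 27 fell (median -0.10), including nucleolin, NCL (-0.75 ± 0.035), NOP56 (-0.74 ± 0.036) and the polymerase I factor UBTF (-0.75 ± 0.043). Mitochondrial ribosomal proteins were balanced at 23 higher and 26 lower of 75 tested, and 10 higher and 38 lower with library size only. Among translation initiation factors, EIF1, which governs start codon choice, rose from 250.01 ± 3.7 to 721 ± 28 CPM (1.53 ± 0.036), the beta subunit of eIF2, EIF2S2, by 1.24 ± 0.038 and the translation repressor EIF4EBP1 by 1.13 ± 0.056, and EIF4EBP2 fell (-0.98 ± 0.035). SESN2 (3.13 ± 0.084) and DDIT4 (2.14 ± 0.076), which restrain the growth kinase mTORC1, rose, and SESN3 fell (-1.74 ± 0.051). Splicing regulators fell, with 23 of 29 SR proteins and hnRNPs lower and 3 higher (median -0.55). HNRNPM was at 256, 268 and 277 CPM in the DMSO libraries and 76.9, 69.8, 70.1 and 62.9 CPM in the GTEA1 libraries, and SRSF3 (-1.52 ± 0.065) and SRSF2 (-1.21 ± 0.037) fell next most.

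Nucleotide metabolism showed 1 large rise. UPP1 (ENSG00000183696), which splits uridine into uracil and a sugar phosphate, was at 9.81, 9.45 and 9.52 CPM in the DMSO libraries and 226, 239, 255 and 285 CPM in the GTEA1 libraries, and the other pyrimidine genes were between -1.04 ± 0.17 (DPYD) and 0.53 ± 0.039 (CMPK1). Purine synthesis was mixed, with PAICS (-0.89 ± 0.036) lower and GART (0.88 ± 0.035) higher.

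Mitochondrial transcripts changed unevenly along 1 genome. Of the 13 mitochondrially encoded proteins 2 rose and 9 fell. MT-CYB (ENSG00000198727), cytochrome b, was at 6705, 6164 and 6923 CPM in the DMSO libraries and 3196, 3159, 3027 and 3481 CPM in the GTEA1 libraries, the largest fall among them. MT-CO3 (-0.76 ± 0.040), MT-ATP6 (-0.79 ± 0.049) and MT-ND1 (-0.83 ± 0.067) fell, and MT-CO1 (0.28 ± 0.042) and MT-ND4 (0.20 ± 0.053) rose, MT-ND4 not past the threshold with library size only. The large ribosomal RNA MT-RNR2 rose from 22373 ± 1421 to 36270 ± 1357 CPM, the largest gain in CPM of all genes, although libraries were selected for polyadenylated RNA. The mitochondrially encoded share of counts was 13.35% to 15.05% in DMSO and 12.49% to 13.56% in GTEA1. Of 37 nuclear subunits of complex I 12 rose and 12 fell, and with library size only there were 7 higher and 19 lower. In the tricarboxylic acid cycle PCK2, the mitochondrial enzyme that makes phosphoenolpyruvate, rose from 9.24 ± 1.7 to 54.1 ± 1.6 CPM (2.56 ± 0.072), and the pyruvate dehydrogenase kinases PDK1 (-1.08 ± 0.055) and PDK3 (-1.60 ± 0.048) fell.

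Glycolysis fell from glucose entry to lactate. Of 23 genes 18 fell and 1 rose (median -0.72). The 1 that rose was the lactate carrier SLC16A1 (0.21 ± 0.055), not past the threshold with library size only (0.05). The counts of ALDOA, the aldolase, which went from 4.18 ± 0.69 to 1.81 ± 0.28 CPM, and of LDHB, the other lactate dehydrogenase subunit, which went from 3.77 ± 0.39 to 3.67 ± 0.43 CPM and did not pass (adjusted p = 0.81), were low in every library, and how reads shared with overlapping genes were counted is not known. The glucose transporter SLC2A1 (-1.88 ± 0.039), the isomerase GPI (-1.32 ± 0.037), PGK1 (-1.64 ± 0.057) and ENO1 (-1.28 ± 0.039) fell, and LDHA (ENSG00000134333), the final enzyme that makes lactate, was at 1038, 1056 and 1081 CPM in the DMSO libraries and 288, 252, 255 and 246 CPM in the GTEA1 libraries. The hexokinase HK2 did not pass (-0.06, adjusted p = 0.19), but did with library size only (-0.22). HKDC1, a hexokinase relative outside the list, rose from 1.10 ± 0.30 to 24.2 ± 1.1 CPM. Other targets of hypoxia factors divided: EGLN3 (-2.12 ± 0.12), BNIP3 (-1.31 ± 0.048) and ADM (-1.37 ± 0.059) fell, and STC2 (2.03 ± 0.041) and VEGFA (1.77 ± 0.042) rose. STC2 and VEGFA are also known as ATF4 targets, but whether ATF4 raised them here was not tested. HIF1A went from 182 ± 0.43 to 267 ± 4.7 CPM.

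**Figure D3:**
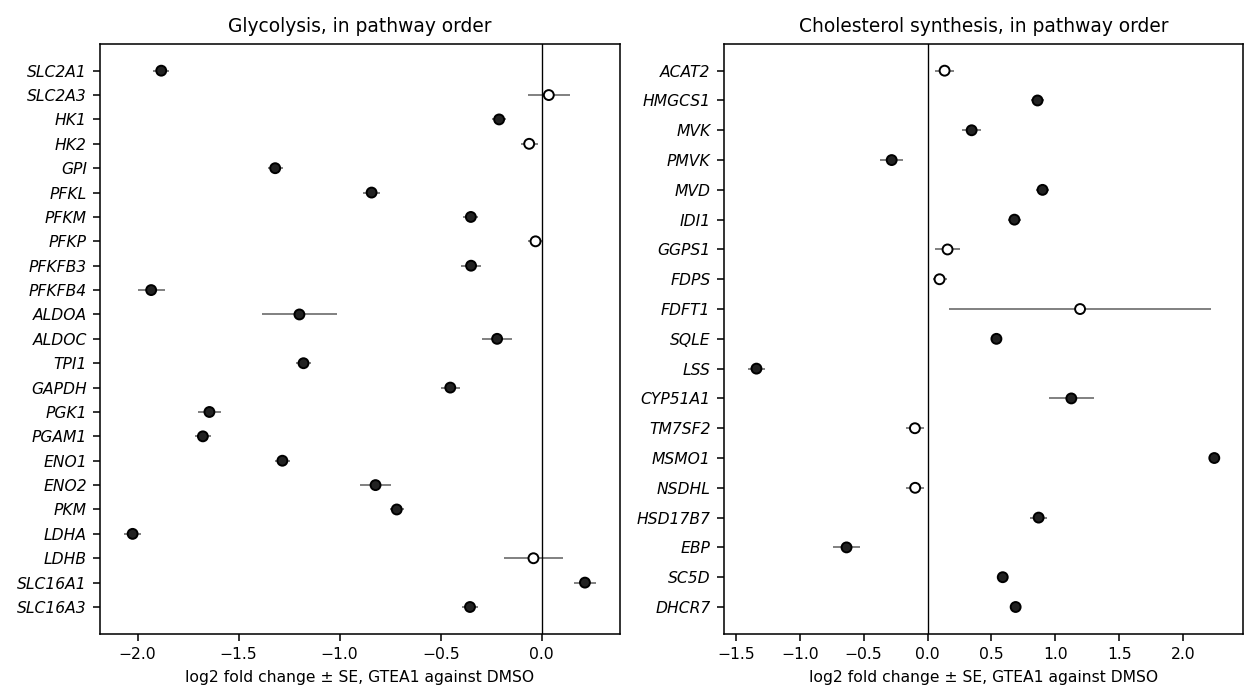
Log2 fold change with its standard error (bars) of genes in pathway order for glycolysis (left) and cholesterol synthesis (right), filled where the adjusted p passed 0.05. Among glycolytic genes LDHA is lowest and the lactate carrier SLC16A1 the only one that rose (not past the threshold with library size only), while in cholesterol synthesis MSMO1 is highest and LSS lowest.

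Cholesterol synthesis moved step by step in both directions. Of 21 genes 11 rose and 4 fell (median 0.54). MSMO1, which removes methyl groups from sterols, was at 69.0, 66.8 and 68.0 CPM in the DMSO libraries and 319, 315, 337 and 316 CPM in the GTEA1 libraries. MVD, which makes the isoprene unit, rose (0.90 ± 0.048), but LSS (-1.34 ± 0.069), which closes the first sterol ring, and EBP (-0.63 ± 0.11), a sterol isomerase, fell. Against the other extract, 3 were higher and 14 lower than in GTEA7. LSS was -1.90 ± 0.061 relative to GTEA7 (adjusted p = 6.8e-32). In uptake, the lysosomal exporter NPC1 rose (1.67 ± 0.045) and the scavenger receptor SCARB1 fell (-0.60 ± 0.045). Fatty acid synthesis was mixed: FASN (-0.52 ± 0.083) and ACLY (-0.52 ± 0.036) fell, and ACSS2 (2.07 ± 0.043), which makes acetyl-CoA from acetate, and the elongase ELOVL1 (1.45 ± 0.043) rose. Of 12 tested lipid droplet proteins and lipases 7 rose and 3 fell, the coat protein PLIN2 going from 22.4 ± 0.87 to 43.4 ± 2.8 CPM, and CPT1A, the entry enzyme of fatty acid oxidation, fell by 0.66 ± 0.038.

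Death receptors and inhibitors of death both included genes that rose. Of 20 tested receptors, caspases and inhibitors 12 rose and 7 fell. TNFRSF10B, the receptor DR5 and a CHOP target, was at 156, 158 and 157 CPM in the DMSO libraries and 704, 766, 795 and 814 CPM in the GTEA1 libraries. TNFRSF1A (1.98 ± 0.042) and TNFRSF10A (0.97 ± 0.059) rose and FAS fell (-0.59 ± 0.098). The inhibitors BIRC3 (1.41 ± 0.085) and XIAP (0.88 ± 0.042) rose as well. In the BCL2 family the killers BBC3 (1.42 ± 0.088) and PMAIP1 (1.08 ± 0.050) and the protectors MCL1 (0.79 ± 0.037) and BCL2L1 (0.78 ± 0.040) all rose.

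Of 13 EGF receptor family receptors and ligands 7 rose and 4 fell, and with library size only there were 6 higher and 6 lower. HBEGF, a ligand of EGFR, was at 7.11, 6.26 and 7.73 CPM in the DMSO libraries and 34.4, 38.4, 41.6 and 44.6 CPM in the GTEA1 libraries. EREG (1.19 ± 0.038) and TGFA (0.97 ± 0.042) rose too, EGFR itself did not pass (0.03, adjusted p = 0.5, but -0.13 and adjusted p = 0.0026 with library size only), and NRG1 fell from 0.738 ± 0.084 to 0.191 ± 0.11 CPM. Among feedback genes of the ERK pathway 11 of 19 rose and 5 fell. DUSP5 (ENSG00000138166), a nuclear ERK phosphatase, was at 78.3, 79.9 and 80.9 CPM in the DMSO libraries and 1116, 1247, 1315 and 1355 CPM in the GTEA1 libraries, 15.8-fold higher, while the cytoplasmic DUSP6 rose by 0.27 ± 0.036 and ETV1 fell by 1.61 ± 0.051. In the AP-1 family JUN (1.89 ± 0.068), JUNB (1.28 ± 0.053) and JUND (0.94 ± 0.041) rose with FOSL1, FOSL2 fell (-1.04 ± 0.055), and FOS did not pass (0.17, adjusted p = 0.14) except without GTEA1 replicate 4 (0.24, adjusted p = 0.036). Of 15 tested Eph receptors and ephrins 11 fell and 2 rose, EPHB3 at -1.02 ± 0.099 and EPHA2 at 2.06 ± 0.040.

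Receptors, ligands and secreted modulators of the Wnt pathway fell in 13 of 20 tested cases and rose in 2. The Frizzled receptors FZD1 (-1.12 ± 0.084), FZD3 (-1.05 ± 0.054) and FZD4 (-1.21 ± 0.073) fell, and the ligand WNT7B (from 8.67 ± 1.4 to 37.2 ± 1.8 CPM) and PORCN (1.08 ± 0.090), which attaches a lipid to Wnt ligands, rose. TCF7L2, the main partner of beta-catenin in the colon, was at 294, 267 and 295 CPM in the DMSO libraries and 121, 113, 114 and 107 CPM in the GTEA1 libraries, and CTNNB1, which encodes beta-catenin, fell by 0.46 ± 0.034. In the BMP pathway 16 of 20 tested genes fell and 2 rose. BMP4 (ENSG00000125378), its ligand, was at 241, 236 and 235 CPM in the DMSO libraries and 44.3, 36.9, 38.0 and 29.9 CPM in the GTEA1 libraries. The inhibitory SMADs SMAD6 (-2.43 ± 0.13) and SMAD7 (-2.10 ± 0.12) and the homeobox gene MSX2 (-2.01 ± 0.067) fell, and ID1 was at 0.18 ± 0.034, apart from its relatives ID2 (-2.43 ± 0.049) and ID3 (-2.92 ± 0.071). The other gene that rose was the receptor ACVR1 (1.16 ± 0.056), and with library size only ID1 no longer passed. TGF-beta ligands, receptors and SMADs were balanced, with 7 of 17 tested higher and 7 lower (median -0.22), and 5 higher and 9 lower with library size only. Among them SMAD3, a TGF-beta transducer, rose by 1.31 ± 0.040. Of 15 NF-kappaB genes 10 rose and 1 fell, with RELB (1.89 ± 0.12) and NFKB2 (1.10 ± 0.043), the subunits of the noncanonical branch, first. RBCK1, a subunit of the linear ubiquitin ligase that feeds NF-kappaB, was at 46.3, 46.4 and 45.3 CPM in the DMSO libraries and 459, 477, 483 and 518 CPM in the GTEA1 libraries. The list of this linear ubiquitin machinery did not rise as a whole: of 5 tested genes 2 rose, 0 fell and 3 did not pass (median 0.13). With library size only 2 were higher and 1 lower (median -0.03).

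Cell anchorage genes were exchanged rather than uniformly shifted. Chains of the epithelial laminin of hemidesmosomes rose: LAMA3 (1.29 ± 0.070) and LAMB3 (ENSG00000196878), the latter at 38.4, 35.2 and 39.9 CPM in the DMSO libraries and 216, 237, 255 and 246 CPM in the GTEA1 libraries. Its receptors ITGA3 (1.90 ± 0.038), ITGA6 (0.73 ± 0.036), ITGB1 (1.13 ± 0.035) and ITGB4 (0.85 ± 0.036) rose. FN1, which encodes fibronectin, went from 188 ± 1.7 to 27.8 ± 2.7 CPM, and ITGB8 fell by 2.63 ± 0.097. Of 16 tested integrins 7 rose and 6 fell. The urokinase PLAU, a protease that activates plasminogen, was at 19.6, 16.8 and 17.0 CPM in the DMSO libraries and 153, 151, 155 and 158 CPM in the GTEA1 libraries. The protease inhibitor TIMP1 rose (2.13 ± 0.041), and TIMP3 fell (-1.14 ± 0.11). The giant cadherins FAT1 (-1.55 ± 0.040) and FAT4 (-3.09 ± 0.077) fell, FAT1 from 3533 ± 61 to 1204 ± 75 CPM. Claudins and tight junction scaffolds rose in 11 of 18 tested cases and fell in 4, with CLDN2 at -1.59 ± 0.12 and CLDN4 at 0.91 ± 0.042, whereas 10 of 17 tested adherens junction and desmosome genes fell and 6 rose.

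Keratins changed in both directions. Of 15 tested keratins and lamins 9 rose and 6 fell, 8 and 2 by at least 2-fold. KRT15, a keratin of basal cells, was at 9.40, 7.66 and 7.11 CPM in the DMSO libraries and 47.5, 50.3, 57.8 and 52.2 CPM in the GTEA1 libraries. KRT7 (1.97 ± 0.13), KRT80 (1.94 ± 0.11) and KRT19 (1.18 ± 0.038) rose, KRT16, a keratin of stressed epidermis, went from 0.214 ± 0.068 to 3.98 ± 0.45 CPM, and the colon keratin KRT20 fell from 2.12 ± 0.50 to 0.632 ± 0.23 CPM. The simple epithelial pair KRT8 (-0.26 ± 0.034) and KRT18 (-0.27 ± 0.038) fell slightly. The nuclear lamins divided, LMNA up by 0.69 ± 0.037 and LMNB1, whose decline is known from senescent cells, down from 138 ± 2.1 to 35.2 ± 3.1 CPM (-1.97 ± 0.046). S100 proteins rose in 7 of 11 tested cases and fell in 3: S100A14 (2.29 ± 0.041), S100A16 (1.88 ± 0.040) and S100A6 (1.62 ± 0.038) rose. Most actin genes rose (20 of 35 tested, 9 lower), ACTG1 from 2919 ± 77 to 5778 ± 375 CPM and the pointed-end nucleator LMOD1 from 1.91 ± 0.41 to 39.8 ± 4.8 CPM.

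Transcription factors of identity were lower more often than higher in some families. Of 28 tested HOX genes, which mark position along the body axis, 18 fell and 3 rose (median -0.71). HOXB6 was at 19.2, 21.8 and 23.0 CPM in the DMSO libraries and 4.68, 4.55, 4.06 and 4.95 CPM in the GTEA1 libraries. Its neighbours in the cluster HOXB5 (-2.21 ± 0.12), HOXB7 (-1.35 ± 0.076) and HOXB8 (-1.51 ± 0.090) fell, and HOXB9 rose (0.60 ± 0.055). SOX4 (ENSG00000124766), a progenitor factor, was at 332, 339 and 332 CPM in the DMSO libraries and 55.8, 53.6, 51.8 and 48.0 CPM in the GTEA1 libraries, whereas SOX13 rose by 0.34 ± 0.051. Of 9 tested SOX factors 3 rose and 3 fell (median 0.10), and with library size only there were 1 higher and 3 lower. Kruppel-like factors rose more often than they fell, with 8 of 14 higher and 4 lower (median 0.42). KLF9 (1.81 ± 0.075) and KLF11 (1.29 ± 0.082) rose and KLF2 fell (-1.08 ± 0.098). The intestinal factors CDX2 (-0.57 ± 0.094), HNF4A (-0.50 ± 0.11) and EHF (-0.85 ± 0.047) fell. In both directions among EMT factors, ZEB1 rose from 7.90 ± 0.76 to 16.1 ± 1.3 CPM and the epithelial splicing factor ESRP1 by 0.95 ± 0.037. HMG proteins changed in both directions, HMGA1 from 740.2 ± 20.5 to 4438 ± 106 CPM, and HMGB1 (-1.39 ± 0.038), HMGB2 (-1.08 ± 0.057) and HMGB3 (-1.62 ± 0.049) down.

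Of 34 tested Polycomb, DNA methylation and histone methyltransferase genes 9 rose and 18 fell. The maintenance methyltransferase DNMT1 (-0.99 ± 0.034), the histone methyltransferase SUV39H1 (-1.39 ± 0.15) and the Polycomb subunit CBX2 (-1.68 ± 0.059) fell, and the de novo methyltransferase DNMT3B (1.48 ± 0.052) and JARID2 (1.32 ± 0.044) rose. The histone variants H2AX (-1.71 ± 0.076) and H2AZ2 (-1.42 ± 0.041) fell, and the linker H1-2 rose from 4.79 ± 0.49 to 13.5 ± 1.5 CPM.

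Immune genes did not move as a block. Of 30 tested interferon genes 10 rose and 15 fell: TRIM25, which activates the RNA sensor RIG-I, rose from 189 ± 3.4 to 649 ± 59 CPM (1.78 ± 0.052), whereas RIGI (-0.65 ± 0.060) and BST2 (-1.70 ± 0.23) fell. Ligands of the natural killer receptor NKG2D divided, with ULBP1 at 11.9, 12.9 and 12.7 CPM in the DMSO libraries and 34.0, 32.5, 28.9 and 33.1 CPM in the GTEA1 libraries, ULBP2 (1.33 ± 0.093) higher and MICB (-0.72 ± 0.21) lower. PVR, a ligand of several checkpoint receptors, rose by 1.20 ± 0.050, and CD274, which encodes PD-L1, rose from 3.80 ± 0.54 to 7.46 ± 0.61 CPM.

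Secreted factors included some of the largest shifts. KITLG (ENSG00000049130), the ligand of the KIT receptor, was at 2185, 2178 and 2108 CPM in the DMSO libraries and 395, 352, 347 and 339.9 CPM in the GTEA1 libraries (-2.59 ± 0.039). The neuropeptide precursor VGF went from 8.97 ± 0.48 to 201 ± 8.3 CPM and the stress cytokine GDF15 from 27.4 ± 1.1 to 469.7 ± 12 CPM. IGFBP3 (-1.28 ± 0.093) and SEMA3C (-1.74 ± 0.052) fell, and IGFBP6 rose (1.34 ± 0.067). The vitamin D catabolic enzyme CYP24A1 fell from 121 ± 4.3 to 7.78 ± 2.4 CPM, and AKAP12, a scaffold of protein kinase A, rose from 2026 ± 69 to 5689 ± 55 CPM (1.49 ± 0.038). By a rule set after the values were seen, 16 genes had at least 1 CPM in every GTEA1 library and under 0.2 CPM in every DMSO library, and 11 genes the opposite. Of the first, KLHDC7B was at 0.0767 ± 0.090 CPM in DMSO and 2.58 ± 0.37 CPM in GTEA1 and FXYD4 at 0.0786 ± 0.026 CPM in DMSO and 1.41 ± 0.32 CPM in GTEA1. Of the second, ACTN2, a muscle actinin, was at 1.49 ± 0.34 CPM in DMSO and 0.122 ± 0.064 CPM in GTEA1 and ADAM12, a metalloproteinase, at 1.26 ± 0.075 CPM in DMSO and 0.0161 ± 0.032 CPM in GTEA1. Their low level in 1 group rests on a few reads, so no fold is given.

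**Figure D4:**
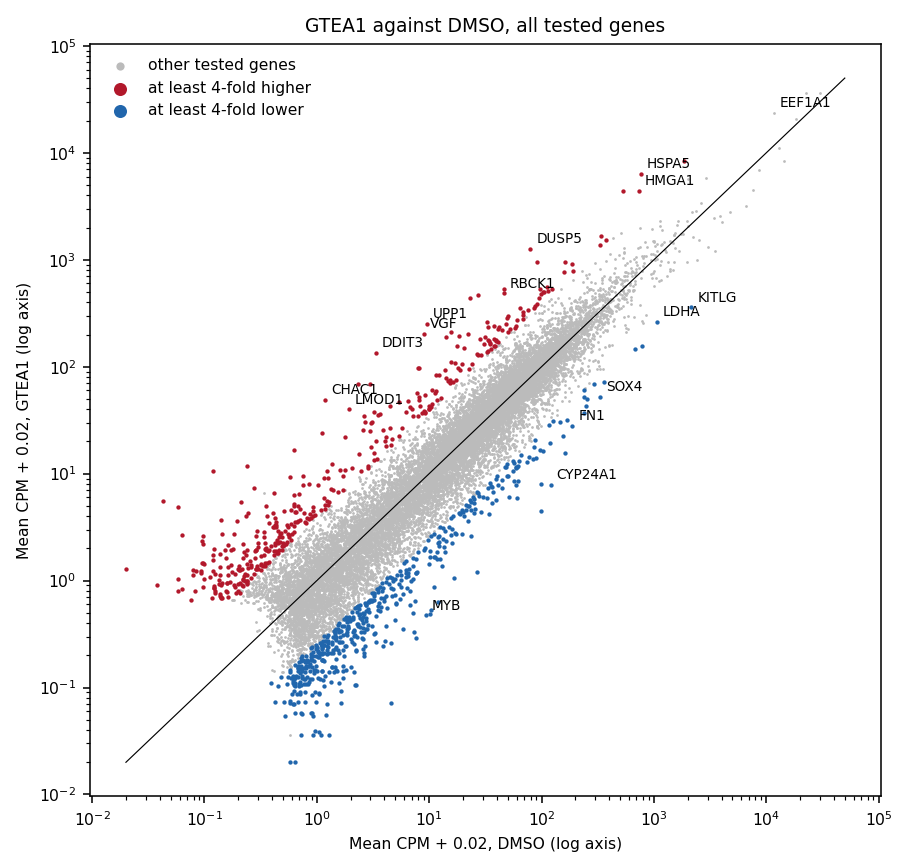
Mean CPM of each tested gene in DMSO (horizontal, n = 3) and GTEA1 (vertical, n = 4), both on log axes, with genes at least 4-fold higher or lower and past the threshold in colour and 16 genes of the text labelled. DDIT3, UPP1 and DUSP5 lie far above the diagonal, KITLG, SOX4 and CYP24A1 below it.

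GTEA1 differed from the related extract in most genes. In the same fit 72.7% of genes differed between GTEA1 and GTEA7, 36.4% higher and 36.2% lower in GTEA1, 8.62% and 11.2% by at least 2-fold. DDIT3 was 5.52 ± 0.085 higher on the log2 scale than in GTEA7 (adjusted p = 3e-30), ASNS 4.63 ± 0.084 (adjusted p = 5.3e-42) and HSPA5 2.81 ± 0.054 (adjusted p = 3.9e-20). KITLG was at -2.49 ± 0.037 (adjusted p = 2.2e-46) and MCM2 at -2.59 ± 0.084 (adjusted p = 4.5e-15). Of the 20 cytosolic tRNA synthetases 13 were higher and 5 lower than in GTEA7. Of the 24 licensing genes 2 were higher and 22 lower than in GTEA7. Doses are not given, so these values compare the libraries as treated, not the extracts at a matched dose.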

How the data were processed

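Polyadenylated RNA of 3 DMSO, 4 GTEA1 and 4 GTEA7 libraries was sequenced. The values deposited by the authors are raw counts of reads, not normalized, with genes in rows and 1 column for each library, and 0 columns were left unused. Per the submitters' processing notes, the tools were HTSeq 0.5.4, DESeq 1.10.1, STAR, SAMtools 0.1.18, GATK and Picard. Their roles, the genome build and the use of strand in counting are not given here, so reads of overlapping, antisense or near-identical genes cannot be told apart. The labels put every library in batch 1.

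Symbols were matched through a table of gene names (60370 of 60624 Ensembl IDs). Genes were kept by edgeR's filterByExpr, libraries scaled by TMM, and all 11 fitted together by the robust quasi-likelihood method of edgeR 4.0.16 (R 4.3.3), so that GTEA7 adds to the estimate of the spread. The threshold was 0.05 on p-values adjusted by Benjamini-Hochberg over all tested genes, and each standard error is the log2 fold change divided by the root of F. The method was tested on simulated data with known changes. Far fewer genes changed there than passed in the real comparison, so the scaling was not tested under a shift as broad. Replicates differed by more than sampling noise, so none was counted as a duplicate.

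The 93 gene lists hold 1994 symbols, of which 1859 were tested. Of the 135 others 25 were at 0 counts in every library. Lists are described by counts and medians beside the same for all genes, with no test of a list. Members and lists were chosen with earlier results of these data known. Genes are named if fixed in the lists, if among the 2 largest rises or falls of a list with a mean of at least 1 CPM, among the 20 largest rises or falls or the 10 largest gains or losses in CPM of all genes, if a count is of 5 or fewer, or if their promoter is printed. Some members of the lists are not reported here, though list counts and medians include them. Some eligible genes are left unnamed, and the choice among them was made after values were seen, as were the printed promoters and HKDC1, FAT4, COL1A1 and the genes near 0 in 1 group. Promoters, taken from RefSeq on GRCh38.p14 in the direction of the gene, were searched on both strands for each motif.

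Alternatives were DESeq2 size factors, library size only, the replicate number as a block, no low-count filter, a filter of 1 CPM in 3 or more libraries, only DMSO and GTEA1 in the fit, limma-voom (limma 3.58.1), the Wald test of DESeq2 1.42.0 and leaving out each library in turn.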

Additional observations from a re-analysis of the deposited data

Results flagged for a closer look

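In 23 of 340 genes named above, 1 GTEA1 library lay far from the other 3 by Dixon's test on CPM, with a gap to its neighbour above the 95% critical value. That is 6.8% of genes, and chance alone flags about 5%. GTEA1 replicate 1 was the highest, apart from the others, in BRIP1 (14.3 CPM), EHF (68.0 CPM), H2AZ2 (91.3 CPM), HMGB3 (58.9 CPM), HOXB8 (8.05 CPM), SRSF2 (102 CPM) and UNG (43.1 CPM). GTEA1 replicate 1 was the lowest, apart from the others, in NIPBL (137 CPM) and XIAP (123 CPM). GTEA1 replicate 2 was the highest, apart from the others, in MICB (2.06 CPM) and TIMP3 (6.24 CPM). GTEA1 replicate 2 was the lowest, apart from the others, in ORC2 (78.1 CPM). GTEA1 replicate 3 was the highest, apart from the others, in HNF4A (8.71 CPM), ORC1 (9.82 CPM), S100A14 (549 CPM), SEC13 (152 CPM) and UROS (44.4 CPM). GTEA1 replicate 4 was the highest, apart from the others, in ADAM12 (0.0642 CPM), CDKN1A (377 CPM), CEBPG (222 CPM) and HSF1 (59.7 CPM). GTEA1 replicate 4 was the lowest, apart from the others, in FASN (336 CPM) and KRT19 (979 CPM). The value of ADAM12 is that of 1 read. Without GTEA1 replicate 1 all 340 genes named kept their direction and their side of the threshold.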

How the results depend on the processing

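Of 340 genes named, 322 kept their direction and their side of the threshold under all of the 15 alternatives that gave them a value, and 18 did not under at least 1. The count of genes that passed against DMSO was 12085 (DESeq2's test) to 13957 (no low-count filter) with other methods, and 12433 to 12699 with 1 library left out. Leaving out 1 library gave 6139 to 6243 genes higher, 6294 to 6456 lower, 1430 to 1706 at least 2-fold higher and 2180 to 2306 at least 2-fold lower. For GTEA1 against GTEA7 it gave 12526 to 13204 genes. Rises of at least 2-fold numbered 2161 without the low-count filter and 1180 with library size only.

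Library size as the only scaling reversed EGFR (-0.13) and KEAP1 (-0.13), and with 1 library left out KEAP1 lay between -0.03 (DMSO replicate 1) and 0.08 (DMSO replicate 2), BLVRA between -0.11 (DMSO replicate 3) and 0.08 (DMSO replicate 2) and LDHB between -0.13 (GTEA1 replicate 4) and 0.01 (GTEA1 replicate 3). None of these had passed with TMM. With library size only the calls of CDH1 (adjusted p = 0.93), EIF2AK1 (adjusted p = 0.052), ID1 (adjusted p = 0.61), MT-ND4 (adjusted p = 0.46), NBN (adjusted p = 0.2), NIPBL (adjusted p = 1), SLC16A1 (adjusted p = 0.38) and XRCC3 (adjusted p = 0.12) were lost, and HK2 (-0.22), PSPH (-0.22), HMOX2 (-0.26) and BLVRA (-0.19) passed. ULK1 missed the threshold with DESeq2's test (adjusted p = 0.053), and FARSA with that test (adjusted p = 0.092) and without the low-count filter (adjusted p = 0.083). The cause of these changes was not tested.

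Same-numbered DMSO and GTEA1 libraries did not deviate together from their group means (correlations -0.09, -0.07 and 0.06). These values give no sign of pairing by replicate number, but a weak shared effect could go unseen. With the replicate number as a block 12725 genes passed, 6268 higher and 6457 lower, 1513 and 2232 of them by at least 2-fold, and 13016 against GTEA7. FARSA was then at adjusted p = 0.098, and no other gene named changed its call. Counts near 0 limit the precision of genes such as NUPR1, KRT16 and KLHDC7B in DMSO.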
